A study of Mus musculus with 8 samples.

Results

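The mRNA binding proteins of male germ cells were followed through 10 genes, the DAZ family pair *Dazl* and *Boll*, the Y-box genes *Ybx1*, *Ybx2* and *Csda*, the family *Igf2bp1*, *Igf2bp2* and *Igf2bp3*, and the poly(A) tail factors *Cpeb1* and *Pabpc1*. They were chosen by name with their measured differences between these same genotypes known, so that the differences below describe the genes and do not test them. Of the 10 genes, 9 had a row among the 18097 genes of the array table, and *Ybx1* was not analysed here. All 9 were detected on each of the 8 arrays (detection p under 0.01) and stayed in the comparison after a filter that left 8324 genes, those detected on at least 4 arrays.

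Whole testes were taken at 17.5 days post partum (dpp), when late pachytene and early diplotene cells are the most advanced germ cells of the first wave. XEO,Sry males had an XO karyotype on the MF1 background and carried transgenes for *Sry*, which makes them male, and *Eif2s3y*, which spermatogonia need in order to proliferate. XE,Z2O,Sry males had the same karyotype, background, age and transgenes and carried a *Zfy2* transgene in addition, so that neither genotype had any other Y gene and neither is a normal XY testis. The question was which transcripts differ when *Zfy* is missing, and the total RNA of 1 male was hybridized to each single-colour Illumina array, with 4 males per genotype in the sample labels where the Methods give fewer.

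Transcription and translation are uncoupled in male germ cells. Spermatocytes transcribe many mRNAs well before the protein is made, and the transcripts wait in ribonucleoprotein particles whose proteins decide when they are stored, translated or degraded. DAZ family proteins recruit the poly(A) binding protein and favour translation, Y-box proteins package mRNA and hold it back, IGF2BP proteins shield bound mRNA from decay, and CPEB1 controls the length of the poly(A) tail.

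Between 8063 and 8434 genes were detected per array, the correlation between arrays over all genes was at least 0.937, and no 2 arrays were identical. *Zfy2* itself was not above background on any array, with a log2 signal of 6.05 to 6.20 in XEO,Sry and 6.15 to 6.19 in XE,Z2O,Sry, so that the genotype labels could not be checked through it. *Eif2s3y*, carried by both genotypes, was detected on all 8 arrays. Its log2 signal was 13.05, 13.3, 13.05 and 12.19 in XEO,Sry and 12.63, 12.2, 12.11 and 12.48 in XE,Z2O,Sry. Replicate 4 alone of the XEO,Sry males lay within the XE,Z2O,Sry range, and the reason was not tested. The animals' identifiers begin differently in the 2 genotypes, and a cohort, if they mark one, cannot be told apart from genotype. Of the defining markers of round spermatids, 6 of 8 were detected on no array, and so were *Hsd3b1*, *Star* and *Hsd17b3* of the Leydig list.

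To show the sequence next to which transcription of these genes starts, the 250 bases before the annotated start are given for *Ybx2* and *Csda*, which ranked the 8 animals alike, for *Igf2bp3*, whose genotypes did not overlap, and for the DAZ pair *Boll* and *Dazl*, whose genotypes overlapped. The sequences are those of RefSeq on GRCm38.p6, where 7 of the 9 genes had an entry, all on autosomes. *Igf2bp1* and *Pabpc1* are named only. Capitals mark CCAAT, or ATTGG where the motif lies on the other strand. *Ybx2* is shown at the first of its annotated starts (chr11:69935649-69935898, plus strand), *Csda*, now named *Ybx3*, at chr6:131388451-131388700 (minus strand), *Igf2bp3* at chr6:49214955-49215204 (minus strand), *Boll* at the start with the motif (chr1:55362729-55362978, minus strand) and *Dazl* at chr17:50293621-50293870 (minus strand).
Ybx2: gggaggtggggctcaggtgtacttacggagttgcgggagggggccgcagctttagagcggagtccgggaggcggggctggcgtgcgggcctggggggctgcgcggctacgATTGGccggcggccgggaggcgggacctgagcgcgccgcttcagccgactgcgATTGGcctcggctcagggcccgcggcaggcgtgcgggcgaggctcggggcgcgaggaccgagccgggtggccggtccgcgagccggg
Csda: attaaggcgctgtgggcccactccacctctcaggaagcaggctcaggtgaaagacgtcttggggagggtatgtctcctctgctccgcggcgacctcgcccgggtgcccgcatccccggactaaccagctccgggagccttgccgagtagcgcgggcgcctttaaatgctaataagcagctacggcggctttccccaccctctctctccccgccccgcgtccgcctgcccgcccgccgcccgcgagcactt
Igf2bp3: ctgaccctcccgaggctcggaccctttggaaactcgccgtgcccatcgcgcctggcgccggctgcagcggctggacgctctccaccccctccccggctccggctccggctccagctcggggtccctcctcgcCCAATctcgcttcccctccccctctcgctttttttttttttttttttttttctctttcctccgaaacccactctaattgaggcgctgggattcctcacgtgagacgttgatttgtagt
Boll: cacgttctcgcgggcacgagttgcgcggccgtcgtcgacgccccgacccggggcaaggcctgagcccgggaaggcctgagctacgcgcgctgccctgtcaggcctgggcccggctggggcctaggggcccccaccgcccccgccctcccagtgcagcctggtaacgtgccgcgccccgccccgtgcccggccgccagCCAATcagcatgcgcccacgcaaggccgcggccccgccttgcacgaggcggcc
Dazl: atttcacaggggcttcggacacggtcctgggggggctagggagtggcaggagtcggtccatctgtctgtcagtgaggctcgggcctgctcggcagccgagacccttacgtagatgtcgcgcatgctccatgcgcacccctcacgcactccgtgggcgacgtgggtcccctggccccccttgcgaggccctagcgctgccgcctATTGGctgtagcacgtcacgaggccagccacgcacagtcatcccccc

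The motif search covered 300 bases per promoter, from 250 before to 50 after the start, on both strands. CCAAT, a motif read by the nuclear factor NF-Y, was found in 4 of the 7 genes and in 37.4% of 32544 distinct mouse promoters of that length. Its first base lay 47 bases before the start in *Dazl* (position -47), at -53 in *Boll*, at -118 in *Igf2bp3*, and at both -140 and -87 in *Ybx2*. *Csda* had none, so that *Ybx2* and *Csda*, which ranked the animals alike, did not share it. The longer Y-box element CTGATTGG, which contains the inverted CCAAT, was found in *Boll* alone of the 7, overlapping its CCAAT, and in 4.07% of all promoters. The letters GGGCGG of the GC box stood in 5 of the 7 genes and in 35.9% of all promoters, AACNGNC of the MYB family in none and in 32.8%, and TGACGTCA of the cyclic AMP response element in none and in 1.8%. *Boll* and *Ybx2* have 2 annotated starts each and were counted if either matched. Counted per promoter, as all promoters were, CCAAT stood in 4 of 9 and GGGCGG in 6 of 9. The members' promoters had a GC content of 58.7% to 78.0%, the highest at the printed start of *Ybx2*, against a median of 53.0% over all promoters. The motif shares were not adjusted for it. A match describes the letters of the window and is not evidence of binding.

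All values that follow are quantile normalized log2 signals. A difference is the XEO,Sry mean minus the XE,Z2O,Sry mean, given with the standard error of limma, and adjusted p-values are those of limma with Benjamini-Hochberg adjustment over 8324 genes. Of the 9 genes, 5 had lower mean signals in XEO,Sry, in the order *Csda*, *Igf2bp3*, *Ybx2*, *Boll* and *Pabpc1*, and the other 4 differed by 0.03 to 0.08. In whole testis RNA, fewer cells of a type and less RNA per cell cannot be told apart, and the number of arrays limits the precision.

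**Figure D1:**
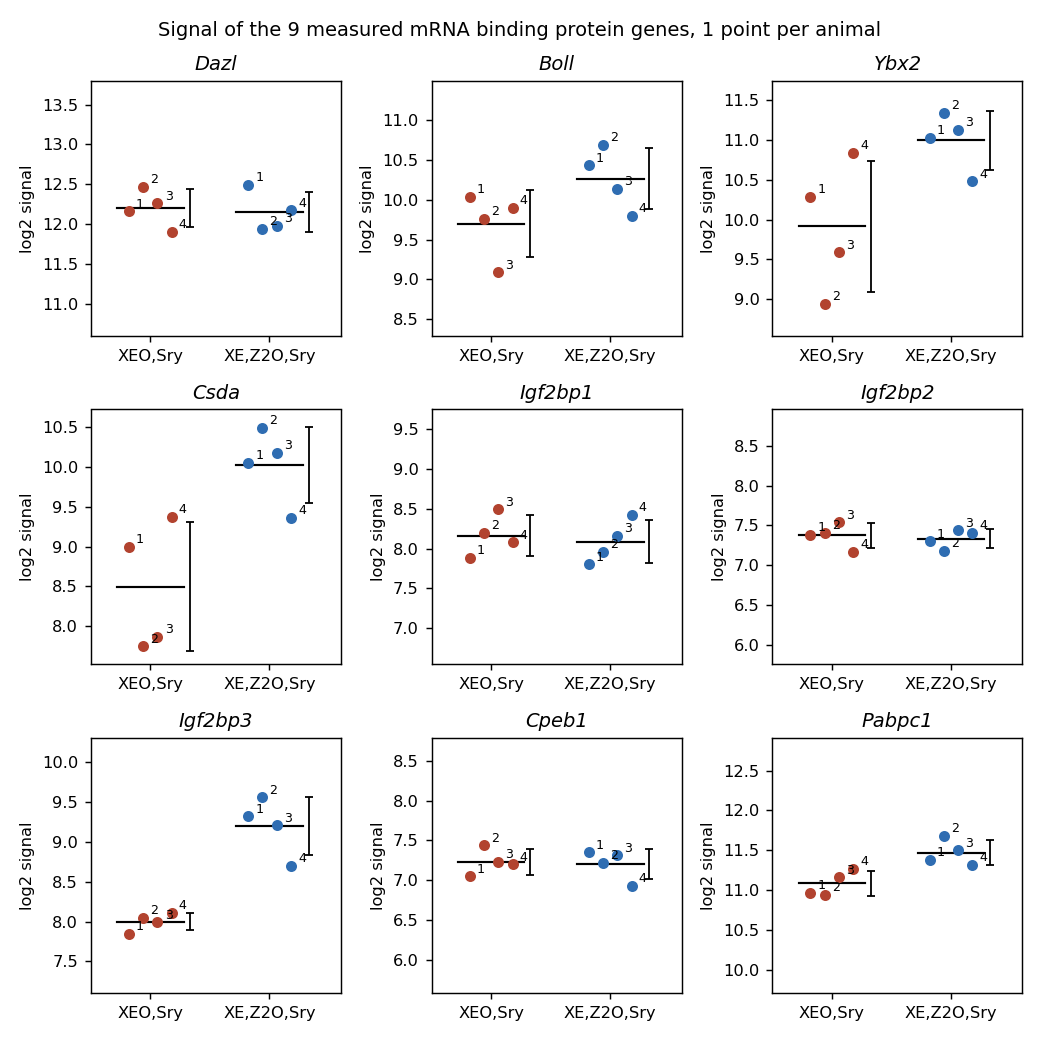
Log2 signal (vertical axis, the same span in every panel) of the 9 genes in each of the 4 XEO,Sry (red) and 4 XE,Z2O,Sry (blue) males, numbered by replicate, with the mean as a line and the SD as a bar. The genotypes are apart for *Igf2bp3* and *Pabpc1*, meet at replicate 4 for *Csda* and overlap more widely for the other genes.

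*Csda* encodes a Y-box protein with a cold shock domain, known in the mouse testis as MSY4, that binds mRNA in spermatocytes and spermatids. Its log2 signal was 9.0, 7.75, 7.87 and 9.37 in XEO,Sry replicates 1 to 4 and 10.05, 10.49, 10.18 and 9.36 in the XE,Z2O,Sry replicates. XEO,Sry replicates 2 and 3 were the lowest, and replicate 4 of both genotypes met within 0.01, which was the whole of the overlap. The means were 8.50 ± 0.811 (SD, n = 4) and 10.02 ± 0.479 (SD, n = 4). The difference was -1.52 (standard error 0.388), a 2.87-fold lower signal, and its adjusted p from limma was 0.114 (unadjusted p = 0.00338). Without XEO,Sry replicate 4 the difference was -1.81 with an adjusted p of 0.0439 from limma, and without XE,Z2O,Sry replicate 4 it was -1.74 with an adjusted p of 0.0458.

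*Ybx2*, which encodes the germ cell Y-box protein MSY2, packages stored mRNA and is needed for male fertility in the mouse. Its log2 signal was 10.29, 8.94, 9.59 and 10.84 in XEO,Sry and 11.03, 11.34, 11.13 and 10.48 in XE,Z2O,Sry. Again XEO,Sry replicates 2 and 3 were the lowest, and XEO,Sry replicate 4 stood 0.37 above XE,Z2O,Sry replicate 4. The means were 9.92 ± 0.828 (SD, n = 4) and 10.99 ± 0.366 (SD, n = 4). The difference was -1.08 (standard error 0.374), or 2.11-fold, with an adjusted p of 0.142 from limma. It was -0.75 without XEO,Sry replicate 2 and -1.39 without XEO,Sry replicate 4, in which case the adjusted p from limma was 0.0495.

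*Igf2bp3* encodes an mRNA binding protein that is abundant in embryos and is kept by few adult tissues, the germ line among them. Its log2 signal was 7.85, 8.05, 7.99 and 8.11 in XEO,Sry and 9.32, 9.56, 9.21 and 8.70 in XE,Z2O,Sry. Every XEO,Sry male was below every XE,Z2O,Sry male, with a gap of 0.59 between the nearest animals. The means were 8.0 ± 0.111 (SD, n = 4) and 9.20 ± 0.361 (SD, n = 4). The difference was -1.20 (standard error 0.169), or 2.29-fold, with an adjusted p of 0.0738 from limma. The 4 XEO,Sry males spanned 0.26, against 1.62 for *Csda* and 1.90 for *Ybx2* in the same animals. The adjusted p from limma was 0.0419 without XEO,Sry replicate 4, with a difference of -1.23, and 0.00369 without XE,Z2O,Sry replicate 4, with a difference of -1.36.

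Its paralogues had smaller differences. *Igf2bp1*, the founding member of the family, read 7.88, 8.20, 8.49 and 8.08 in XEO,Sry and 7.80, 7.96, 8.16 and 8.42 in XE,Z2O,Sry, a difference of 0.08 (standard error 0.166). *Igf2bp2*, which also binds *Igf2* mRNA, read 7.38, 7.41, 7.54 and 7.17 against 7.30, 7.18, 7.44 and 7.41, a difference of 0.04 (standard error 0.106). In both genes the genotypes were interleaved. The 95% interval of the difference from limma ran from -0.30 to 0.45 for *Igf2bp1* and from -0.20 to 0.28 for *Igf2bp2*, and from -1.58 to -0.82 for *Igf2bp3*. The difference between these paralogues was not itself tested.

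The DAZ family pair follows, and the difference between its genes was not tested. *Boll*, the ancestral member, is needed for spermiogenesis in the mouse and had a log2 signal of 10.04, 9.76, 9.09 and 9.90 in XEO,Sry and 10.43, 10.69, 10.14 and 9.80 in XE,Z2O,Sry. XEO,Sry replicate 3 was the lowest, and XE,Z2O,Sry replicate 4 lay among the XEO,Sry males. The means were 9.70 ± 0.421 (SD, n = 4) and 10.27 ± 0.384 (SD, n = 4), and the difference was -0.57 (standard error 0.242), or 1.48-fold, with an adjusted p of 0.188 from limma. Without XEO,Sry replicate 3 the difference was -0.37, and without XE,Z2O,Sry replicate 4 it was -0.73.

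*Dazl*, which germ cells need from embryonic life through to meiosis, had signals of 12.16, 12.47, 12.26 and 11.90 in XEO,Sry and 12.49, 11.94, 11.98 and 12.17 in XE,Z2O,Sry. The genotypes overlapped over nearly the whole range. The means were 12.20 ± 0.237 (SD, n = 4) and 12.14 ± 0.253 (SD, n = 4), with a difference of 0.06 (standard error 0.158, 95% interval from limma -0.30 to 0.41).

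Of the poly(A) tail factors, *Pabpc1*, the general cytoplasmic poly(A) binding protein, had a small difference with little spread. Its signal was 10.97, 10.94, 11.16 and 11.27 in XEO,Sry and 11.38, 11.68, 11.50 and 11.32 in XE,Z2O,Sry. All XEO,Sry males were below all XE,Z2O,Sry males, by a gap of 0.05 between the nearest. The means were 11.08 ± 0.156 (SD, n = 4) and 11.47 ± 0.16 (SD, n = 4), and the difference was -0.39 (standard error 0.116), or 1.31-fold, with an adjusted p of 0.122 from limma. *Pabpc2* is a close copy of this gene, and whether the probes tell the copies apart was not examined here. *Cpeb1*, which controls the storage of mRNAs for the synaptonemal complex in mouse oocytes, read 7.05, 7.44, 7.23 and 7.20 against 7.35, 7.22, 7.31 and 6.93. The genotypes were interleaved, and the difference was 0.03 (standard error 0.124, 95% interval from limma -0.25 to 0.31).

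Over all genes kept, 5 of 8324 passed limma at an adjusted p under 0.05 in either direction (0.0601%), and none of the 9 members did. At an unadjusted p under 0.05, 5 members were lower in XEO,Sry, beside 12.0% of all genes, and 0 were higher, beside 12.9%. The genotypes did not overlap for 2 members, both lower, beside 4.58% of all genes, and for 0 members in the other direction, beside 6.34%. The signal was lower by more than 1.5-fold for 3 members, *Csda*, *Igf2bp3* and *Ybx2*, beside 6.63% of all genes, and higher for 0, beside 0.973%. Since the genes were selected on this contrast, nothing is read from these counts. The median difference of the 9 genes was -0.39, where that of all genes was 0.07.

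**Figure D2:**
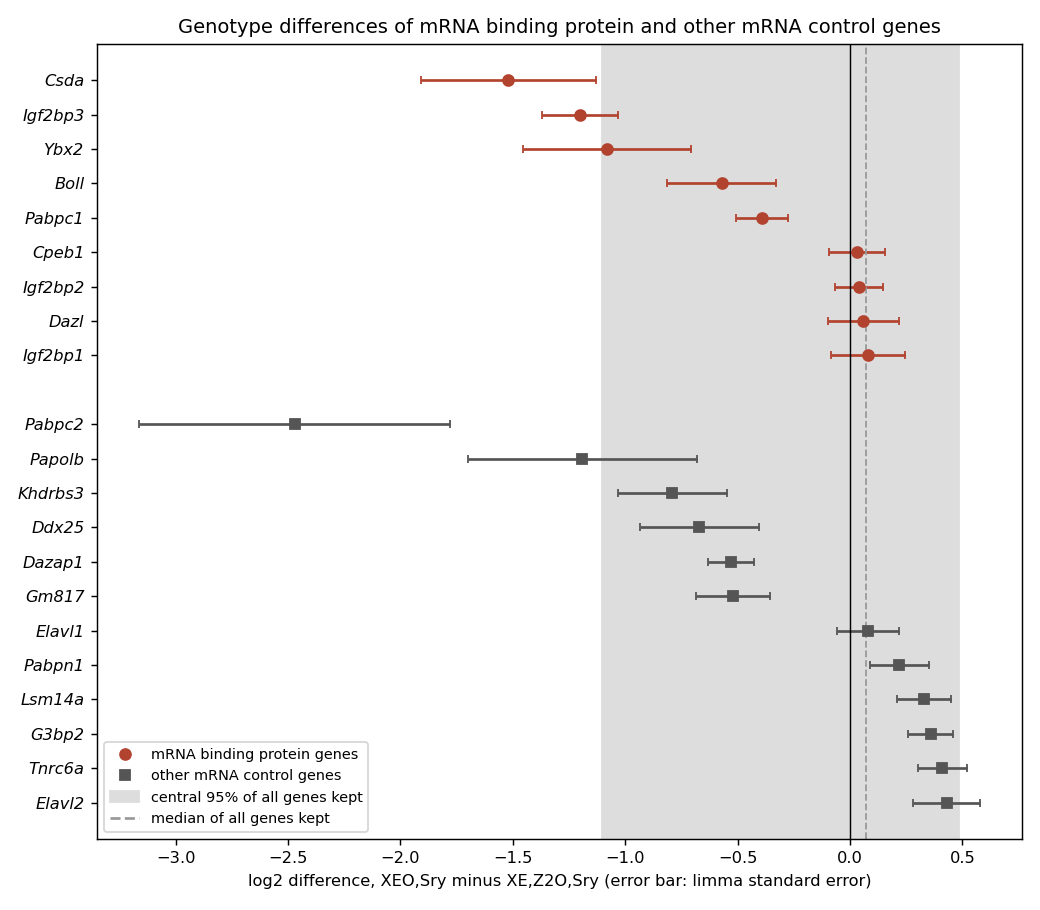
Log2 difference, XEO,Sry minus XE,Z2O,Sry (horizontal axis), with the standard error of limma, for the 9 members (red circles) and for named genes of the other mRNA control lists (grey squares). The shaded band holds the central 95% of all genes kept, from -1.10 to 0.48, the dashed line is their median, and *Csda*, *Igf2bp3*, *Pabpc2* and *Papolb* lie below the band.

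Other genes that control mRNA in the cytoplasm were taken from 4 lists of 95 genes, of which 54 were kept. None of the 54 passed limma at an adjusted p under 0.05. At an unadjusted p under 0.05, 6 were higher in XEO,Sry, beside 12.9% of all genes, and 9 lower, beside 12.0%. Their median difference was 0.06, with 34 positive and 20 negative. The lists were chosen with earlier results of these data known, so that nothing is read from the counts. These 54 genes were centred near the median of all genes, and all 9 of the lower genes came from 2 of the lists.

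The first of these holds poly(A) tail genes, of which 11 were kept, 1 higher and 4 lower at the unadjusted level, with a median of 0.02. *Pabpc2*, a testis form of the poly(A) binding protein, had the largest difference of the 54 genes at -2.47 (standard error 0.692, adjusted p = 0.121 from limma), with signals of 10.06, 7.61, 7.56 and 10.07 in XEO,Sry and 11.62, 12.22, 11.28 and 10.05 in XE,Z2O,Sry. The testis poly(A) polymerase *Papolb* differed by -1.19 (standard error 0.51). For both, XEO,Sry replicates 2 and 3 were the lowest of all animals and replicate 4 was the lowest XE,Z2O,Sry male, as for *Csda* and *Ybx2*. *Pabpn1*, the nuclear poly(A) binding protein, differed by 0.22 (standard error 0.133).

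The other list holds germ cell RNA regulators, of which 17 were kept, 1 higher and 5 lower at the unadjusted level, with a median of -0.01. *Khdrbs3*, a splicing regulator, differed by -0.79 (standard error 0.244), and *Ddx25*, an RNA helicase of spermatids and spermatocytes that is needed for sperm formation in the mouse, by -0.67 (standard error 0.263). *Dazap1*, which encodes a partner of the DAZ proteins, and *Rbm44*, listed on the array as *Gm817*, were the only 2 of the 54 genes whose XEO,Sry males all lay below all XE,Z2O,Sry males, beside 4.58% of all genes. Both were singled out after their values were seen. *Dazap1* read 8.05, 7.96, 8.02 and 8.31 against 8.52, 8.63, 8.74 and 8.57, which gives -0.53 (standard error 0.103) at an adjusted p of 0.0931 from limma, and *Gm817* differed by -0.52 (standard error 0.164).

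The storage granule and repression list (13 genes kept, median 0.11) and the list of other stability factors (13 kept, median 0.10) each had 2 genes higher and 0 lower at the unadjusted level. The stress granule gene *G3bp2* differed by 0.36 (standard error 0.1) and *Tnrc6a*, of the microRNA silencing complex, by 0.41 (standard error 0.109). In these 2 of the 54 genes all XEO,Sry males lay above all XE,Z2O,Sry males, beside 6.34% of all genes. *Lsm14a*, a component of P bodies, differed by 0.33 and the neuronal and germ cell gene *Elavl2* by 0.43, with overlap. *Elavl1*, the ubiquitous stabilizing protein HuR, differed by 0.08.

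Transcripts listed as bound by the members were measured on the same arrays. *Pgk2*, the spermatogenic phosphoglycerate kinase listed as a target of YBX2, had signals of 8.56, 6.78, 6.59 and 8.34 in XEO,Sry and 9.96, 10.78, 9.65 and 8.28 in XE,Z2O,Sry, which gives -2.10 (standard error 0.594) at an adjusted p of 0.121 from limma. It also belongs to the pachytene markers described below, and its lowest animals were those of *Ybx2* and *Csda*. The spermatid transcript *Tnp1*, on the same list, differed by -0.10 at a low signal. *Tex19*, the gene of the DAZL target TEX19.1, differed by 0.35, the CPEB1 target *Sycp1* by 0.02, and *Cdc25a*, of the cell cycle phosphatase family that BOLL homologues regulate in the fly, by 0.29. The IGF2BP targets *H19*, *Igf2* and *Actb* differed by 0.38, 0.34 and 0.18. None of these transcripts passed limma at an adjusted p under 0.05. *Cdc25a* and *H19* were higher and *Pgk2* lower at an unadjusted p under 0.05. The other listed targets *Ddx4*, *Sycp3*, *Prm1*, *Tnp2*, *Cd44*, *Myc*, *Cdc25b* and *Cdc25c* did not pass the detection filter.

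Markers of pachytene spermatocytes moved with some of the members. The mean log2 signal of the 13 kept genes of this list, out of 17 in the table, was 10.27, 8.88, 9.12 and 10.62 in XEO,Sry and 11.30, 11.71, 11.35 and 10.55 in XE,Z2O,Sry, or 9.73 ± 0.853 and 11.23 ± 0.489 (SD, n = 4). All 13 had lower means in XEO,Sry, by 1.5 on average, with single differences from -3.73 to -0.0 (rounded). The defining markers *Mybl1*, *Tcte3* and *Cetn1* were detected on no array. *Ybx2* and *Csda* each placed the 8 animals in exactly the order of this list, from XEO,Sry replicate 2, the lowest, to XE,Z2O,Sry replicate 2, the highest. This order is not particular to them, since *Tcea2*, *Syngr4*, *1190002A17Rik* and *Tessp3*, described below, have it too. How many of all genes kept share it was not counted. Of the 8 animals, *Pabpc1* gave 4 the rank of the list, *Igf2bp3* 2, *Boll* and *Igf2bp2* 1 each, and *Dazl*, *Igf2bp1* and *Cpeb1* 0. XEO,Sry replicate 4 stood within the range of the XE,Z2O,Sry males for the list and for *Ybx2*, *Csda* and *Boll*, whereas it stood 0.59 below the lowest of them for *Igf2bp3* and 0.05 below for *Pabpc1*. The part of these cells in each gene's difference was not tested.

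**Figure D3:**
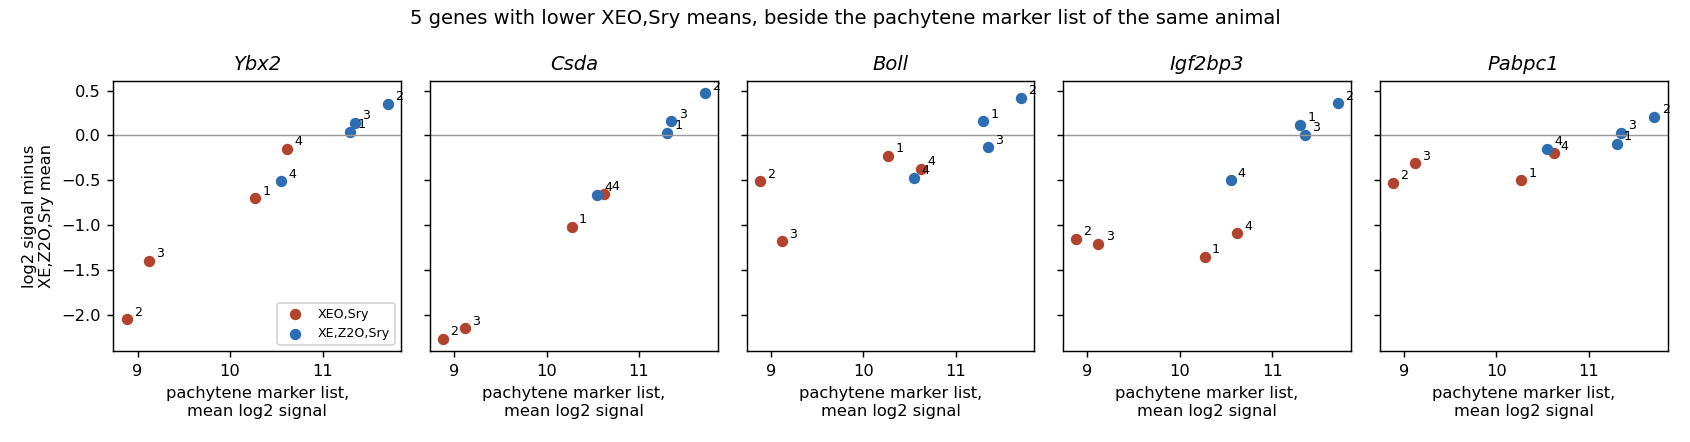
Log2 signal of 5 genes relative to their XE,Z2O,Sry mean (vertical axis) against the mean log2 signal of the pachytene marker list in the same animal (horizontal axis), with XEO,Sry in red, XE,Z2O,Sry in blue and replicates numbered. *Ybx2* and *Csda* rise with the list through both genotypes, whereas the 4 XEO,Sry males stay between 7.85 and 8.11 (log2 signal) for *Igf2bp3* while the list spans 8.88 to 10.62. Among the XE,Z2O,Sry males, replicate 2 was the highest and replicate 4 the lowest for both *Igf2bp3* and the list.

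The lists of other cells differed less. The 8 kept spermatogonial markers averaged 8.31 to 8.72 in XEO,Sry and 8.17 to 8.76 in XE,Z2O,Sry, a difference of 0.06, with *Rarg* detected on no array. Their single differences were mixed, 6 positive and 2 negative, from -0.89 to 0.45. The 7 Sertoli cell markers averaged 10.83 to 11.2 and 10.58 to 11.18, a difference of 0.18. The 6 macrophage markers averaged 8.07 to 8.55 and 7.76 to 8.38, with all 6 means higher in XEO,Sry, as were all 6 of the peritubular and vascular list, which averaged 8.14 to 9.07 and 7.80 to 8.77. The 5 Leydig cell markers differed by -0.06 and the 2 kept markers of round spermatids by -0.16. The part of these cells in the members' differences was not tested either.

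To find transcripts that varied like the 3 most variable members, log2 signals were centred per gene and compared over the 8 arrays by the root mean square difference, among all genes kept. Nearest to *Csda* were *Lrrc23*, a gene of the sperm flagellum, at 0.119, *1190002A17Rik* at 0.12 and the testis serine protease *Tessp3* at 0.121. *Ybx2* had as its nearest *Tcea2*, a transcription elongation factor of the testis, at 0.0806, then the deubiquitinating enzyme *Usp2* at 0.124 and *Syngr4*, of the synaptogyrin family, at 0.131. *Ybx2* and *Csda* themselves differed by 0.275, which made *Ybx2* the 97th nearest to *Csda* and *Csda* the 86th nearest to *Ybx2*.

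The genes nearest to *Igf2bp3* were *Sgca*, which encodes a sarcoglycan, at 0.157, the transporter-like gene *Svop* at 0.159 and *Gldc*, the decarboxylase of the glycine cleavage system, at 0.171. In these 3 genes too, all XEO,Sry males lay below all XE,Z2O,Sry males, which the choice by nearness to *Igf2bp3* partly builds in. Their XEO,Sry signals were low, at most 6.57 for *Sgca*, 6.81 for *Svop* and 6.87 for *Gldc*, where the undetected *Zfy2* read 6.05 to 6.20. Whether they were above background in XEO,Sry was not examined. *Sgca* read 6.54, 6.31, 6.40 and 6.57 in XEO,Sry and 7.63, 7.93, 7.52 and 6.82 in XE,Z2O,Sry. The nearest of the other members to *Igf2bp3* was *Boll*, at rank 465 of the genes kept, whereas *Csda* came at rank 1257. These distances describe 8 arrays, and they take in the genotype difference as well as the spread within a genotype.

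The dependence on single animals was followed by leaving out each male in turn. The differences of *Csda*, *Igf2bp3*, *Ybx2*, *Boll* and *Pabpc1* stayed negative throughout, from -1.81 to -1.27, from -1.36 to -1.08, from -1.39 to -0.75, from -0.73 to -0.37 and from -0.45 to -0.32 in that order. An adjusted p under 0.05 from limma was reached only when replicate 4 of a genotype was left out, by *Ybx2*, *Csda* and *Igf2bp3* without that of XEO,Sry and by *Csda* and *Igf2bp3* without that of XE,Z2O,Sry. In these 2 fits 4.76% and 6.23% of all genes passed. The genotypes then did not overlap for 4 and 5 of the 9 members, all lower, beside 9.96% and 13.9% of all genes. *Dazl*, *Igf2bp1*, *Igf2bp2* and *Cpeb1* took either sign, with values between -0.06 and 0.19.

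**Figure D4:**
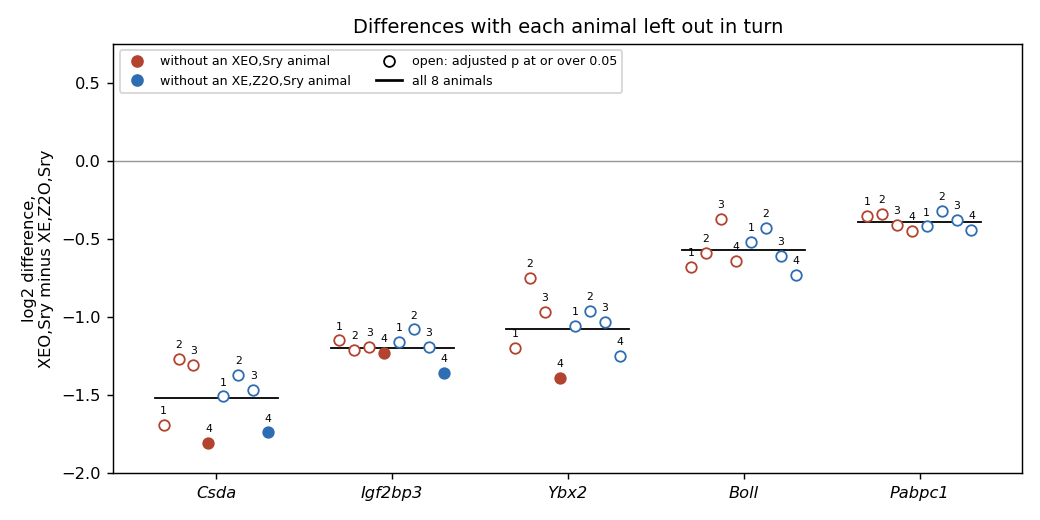
Log2 difference, XEO,Sry minus XE,Z2O,Sry (vertical axis), of 5 genes after leaving out each of the 8 males in turn, with the replicate left out as a number, red for XEO,Sry and blue for XE,Z2O,Sry. Filled points have an adjusted p under 0.05 from limma, open points do not, the line is the value with all 8 males, and only points with replicate 4 left out are filled.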

How the data were processed

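Whole testis RNA of 4 XEO,Sry and 4 XE,Z2O,Sry males at 17.5 dpp was read on 1 array per male, so that the spread between arrays joins animal and technical error. The authors quantile normalized the signals in BeadStudio and deposited gene-level log2 values, from 5.72 to 15.48, and the submitters' processing notes name GenomeStudio 2011.1. The deposited detection p-values set each signal against negative control beads. The linear intensities that the authors deposited as non-normalized had array medians of 105.5 to 106.3 and were thus aligned already. The deposited series table repeats the log2 values for 18091 genes.

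Groups and replicate numbers came from the labels. Genes with a detection p under 0.01 on at least 4 of 8 arrays were kept and compared two-sided in limma 3.58.1 (R 4.3.3; linear model with genotype alone, moderated variances), with Benjamini-Hochberg adjustment over 8324 genes and a threshold of 0.05. Alternatives were a replicate block, other detection filters, normexp background correction (offset 50) or quantile normalization of the linear intensities, the series table, no variance moderation, array weights and leaving out each array. On simulated data for 8324 genes with their measured spread, limma recovered 58%, 76%, 96% and 100% of 50 genes each changed by 0.585, 1, 2 and 3.5 (log2), with 9 false calls. The noise was drawn independently for each gene and the changed genes were picked at random. Variation shared by many genes of an animal was thus absent, and the shares do not give the power for genes of wide spread such as *Csda* and *Ybx2*.

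The members and all gene lists were chosen with earlier results of these data known. Named are every member, for each list of control or target genes the 2 kept genes with the largest difference and the 1 with the highest mean signal, and the 3 genes nearest in pattern to the 3 members of widest range. Marker lists were averaged per array over kept genes. Tables and plots were made with pandas 2.3.3 and matplotlib 3.10.9 (Python 3.11.15).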

Additional observations from a re-analysis of the deposited data

How the results depend on the processing

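The difference of each member moved by less than 1 SD under each of 15 alternatives. The fit without variance moderation is not among the 15, since it leaves the differences unchanged. Its adjusted p-values are not in the ranges below, and it called 0 members. Leaving out 1 of 4 animals cannot move a difference by 1 SD, and the block, the detection filters and the series table do not change it. The other normalizations started from intensities that were aligned already, which left little room to move a difference. Only for the array weights was this outcome not largely fixed in advance. *Csda*, *Igf2bp3*, *Ybx2*, *Boll* and *Pabpc1* stayed negative in all 15 alternatives, with adjusted p-values from limma of 0.0388 to 0.301, 0.00369 to 0.255, 0.0495 to 0.332, 0.0761 to 0.421 and 0.046 to 0.302 in that order. *Dazl*, *Igf2bp1*, *Igf2bp2* and *Cpeb1* changed sign in 3, 2, 2 and 3 of the alternatives, and no cause was tested. Over all genes kept, 5 passed limma, 1 passed with the replicate block, 1 among genes detected on all 8 arrays, 1 without variance moderation and 626 with array weights (204 higher, 422 lower). Array weights also called 3 members (*Csda*, *Igf2bp3* and *Pabpc1*) and 5 of the other mRNA control genes, against 0 of each in the main fit. They called 7.52% of all genes. Leaving out 1 animal gave 3 to 519 genes passing, 0 to 3 members, 2 to 5 members without overlap and 0 to 2 control genes. The counts of 396 and 519 genes, or 4.76% and 6.23% of all genes, came without replicate 4 of XEO,Sry and of XE,Z2O,Sry. In these 2 fits 9.96% and 13.9% of all genes were lower without overlap. The other 6 omissions gave 3 to 5 genes passing. Animals of the same number did not consistently deviate together, with correlations of 0.426, -0.232, 0.327 and -0.421 for numbers 1 to 4. The Methods call the controls matched without saying how, and 4 correlations of mixed sign cannot settle whether the numbers pair animals. The replicate block called 0 members. No animal stood apart from the other 3 of its genotype by Dixon's criterion in 68 groups tested. With 4 values per group this criterion has little power and cannot flag a split of 2 against 2, so that nothing is concluded from it.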
